A study of Oryza sativa with 4 samples.

Results

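Nitrate-treated and water-treated leaves of light-grown rice seedlings were compared on 2 of the 4 arrays of the series, the 2 whose titles name light and nitrate treatment. The plants were Oryza sativa indica var. Panvel, 8 to 10 days old, raised without nutrients on distilled water at 25 °C and 80 to 90% humidity with 12 h of light and dark in turn. The treated group received 120 mM nitrate for 2 h by the labels, and the methods add that cut leaves were floated on potassium nitrate and that the controls were on water. The methods also give another duration and growth temperature, so both are known only as labelled. Because the control carried no potassium salt, nitrate, potassium and the osmotic strength of the solution cannot be told apart. The other 2 arrays hold the same treatment of etiolated leaves from plants raised and treated in total darkness, and they are used here to share the estimate of the spread and for 1 contrast. The methods describe the 2 arrays of a condition as biological replicates, and the p-values below measure the spread between such arrays.

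Each array carried nitrate RNA in one dye and water RNA in the other, with nitrate in Cy5 on light replicate 1 and in Cy3 on light replicate 2. Dyes are labelled by channel, but no label says which channel held nitrate. Channel 2 was read as nitrate because this gives the signs of the study's own listing, for all 23 probes that were matched to it. The direction is therefore likely, and it is not independent of the study. All 21495 non-control probes were tested, each printed as a pair of spots, and 1 of them had a value on 1 light array only. Signal was well above background for 79.0% and 75.5% of spots in the nitrate channel, and for 77.8% and 76.4% in the water channel. Pairs of values below are given in the order light replicate 1, light replicate 2, as background-subtracted signal in arbitrary units or as the log2 ratio of nitrate over water. A probe stands for a full-length rice cDNA and is named by its printed description, which is often that of a similar sequence from another species. No probe was linked to a rice locus here.

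Rice leaves reduce nitrate in the cytosol by nitrate reductase and then reduce nitrite in the plastid by nitrite reductase, a siroheme enzyme that takes its electrons from reduced ferredoxin. The ammonium formed is built into glutamine and glutamate. Nitrate is also a signal that switches on the genes of this pathway in many plants, and the reducing power comes from photosynthesis in green tissue or from the oxidative pentose phosphate pathway where light is lacking.

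A probe was called a differentially expressed gene (DEG) where its log2 ratio reached 1 in either direction with a limma p no higher than 0.05 before adjustment, thresholds that follow those of the study. Of the 21495 probes, 803 were DEGs (3.74%), of which 490 rose (2.28% of all probes) and 313 fell (1.46%). After Benjamini-Hochberg adjustment over all probes 67 remained at an adjusted p of at most 0.05 (0.312%), 45 higher and 22 lower in nitrate, and the smallest adjusted p by limma was 0.0146. Leaving out any 1 of the 4 arrays brought the adjusted count to 0, so most calls below rest on the unadjusted rule. All 803 DEGs had the same sign on both light arrays, which the rule all but requires, and 498 passed a log2 ratio of 1 on each array. Across probes, which are not independent replicates, the ratios of the arrays correlated at r = 0.449.

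**Figure D1:**
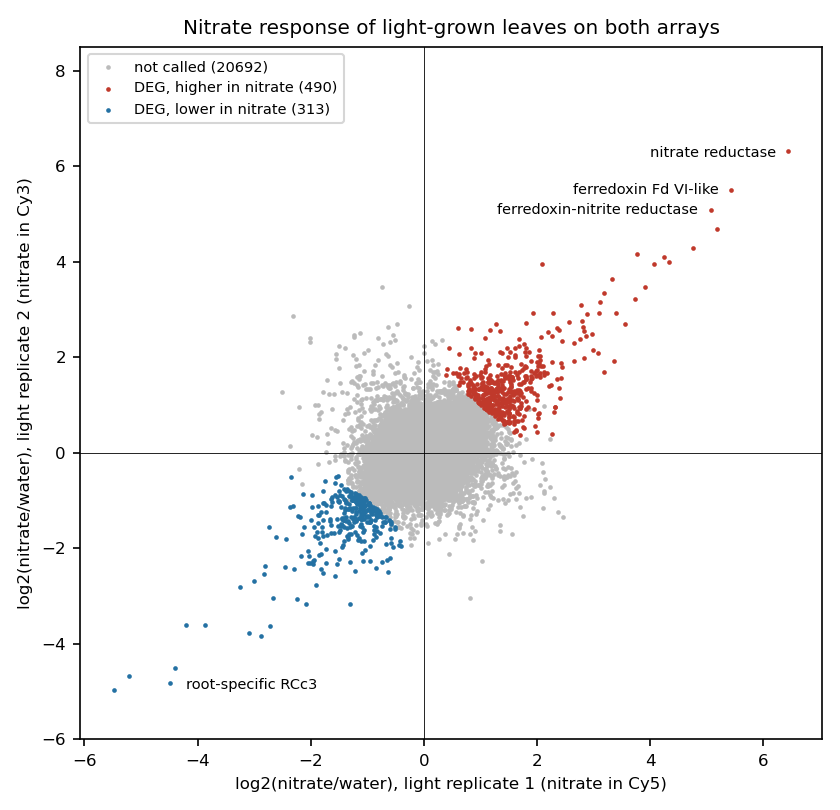
Log2 ratio of nitrate over water of every probe on light replicate 1 (x axis) and light replicate 2 (y axis), with the 490 DEGs that rose in red, the 313 that fell in blue and the other probes in grey. The rule uses the mean of these 2 arrays, so called probes lie in the lower left and upper right, and the nitrate reductase probe at the upper right has 6.44 and 6.32.

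Among DEGs, 51 rose by a log2 ratio of at least 2 and 35 fell by as much, while at a ratio of 4 the counts were 8 and 4. The nitrate channel was dim on both arrays in all 4 of those decreases, so their extent was not measured. Probes with a channel well above background on each light array were called in 4.04% of cases (675 of 16728) and the dimmer probes in 2.69% (128 of 4767). In 97 increases the water signal failed to stand well above background on both arrays, and in 61 decreases this held for the nitrate channel. The full extent of these changes was therefore not measured. A bound was computed by raising the dim channel to the lowest signal among probes well above background. Where the dim signal already lay above that level on both arrays, the bound equals the fitted fold. Where it lay above that level on either array, the bound is no minimum. The bounds hold for background subtracted by the scanner software. For all 21 named probes given a bound, the normexp background correction, which fits the background and keeps dim signals above 0, gave a smaller fitted fold, between 1.06 and 4.64. Normexp was used with an offset that adds 50 units to both channels, which by itself shrinks the ratio of a dim probe. A smaller fold or lost call of a dim probe with normexp therefore does not tell a small change from the added constant. Probes described as an unknown expressed protein were called about as often as the rest, with 132 higher and 89 lower among 5565 (3.97%).

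The labelled tissue was checked by markers. The 36 probes for Rubisco small subunit, chlorophyll-binding and photosystem proteins, which mark green leaf, had median signals of 30893 and 32073 in the nitrate channel and of 36269 and 20928 in the water channel. Of the 9 seed storage probes 2 to 5 were well above background in a channel, and of the 5 pollen allergen probes 2 or 3 were. The seed list had median signals of 8.57 and 14.3 with nitrate and 35.7 and 35.7 with water.

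Nitrate and nitrite reductase included the largest increase on the array. Of 6 probes so described, 4 rose and none fell, against 3.74% of all probes called. This was nitrate reductase A_71_P104314, described by the barley gene, with signals of 12397 and 15703 in nitrate-treated leaves, against 144 and 199.9 in water-treated leaves. Its log2 ratio was 6.38 ± 0.17 (SE from limma, n = 2 arrays, adjusted p = 0.0146). A second nitrate reductase probe, A_71_P120871, gave 39349 and 54370.2 with nitrate and 4553 and 5979 with water, a log2 ratio of 3.14 ± 0.13 (adjusted p by limma = 0.0217). On both probes the nitrate signals lay above the water signals with no overlap, and all channels were well above background.

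Of the remaining nitrate reductase probes, A_71_P120867, described by the maize gene NAR1S, had 76.7 and 115 with nitrate and 25.8 and 41.9 with water, where 1 of 2 arrays was well above background, and its log2 ratio of 1.83 ± 0.31 passed the DEG rule but not adjustment (adjusted p by limma = 0.112). The call was lost with the normexp background correction. A_71_P128019, described by a rapeseed gene, had 27.0 and 11.7 with nitrate and 37.1 and 17.4 with water, a log2 ratio of -0.43 ± 0.14 that was not called, and either channel was well above background on 1 array only.

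Ferredoxin-nitrite reductase was represented by a pair of probes that differed. A_71_P102212 had 628 and 624 in nitrate-treated leaves and 19.4 and 19.1 in water-treated leaves, where neither array had it well above background. It was 30.9-fold higher with nitrate once dim water signals under the lowest signal among probes well above background were raised to that level (adjusted p by limma = 0.0296). The water signal was not under that level on both arrays, so 30.9 is no minimum. With normexp the fitted log2 ratio of A_71_P102212 was 2.21, still called. The other probe with the same description, A_71_P122972, was well above background in both channels, with 7006 and 9124 for nitrate and 9097 and 9800.0 for water, and its log2 ratio of -0.22 ± 0.16 was not called. Whether the probes read the same gene is not known from the descriptions.

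**Figure D2:**
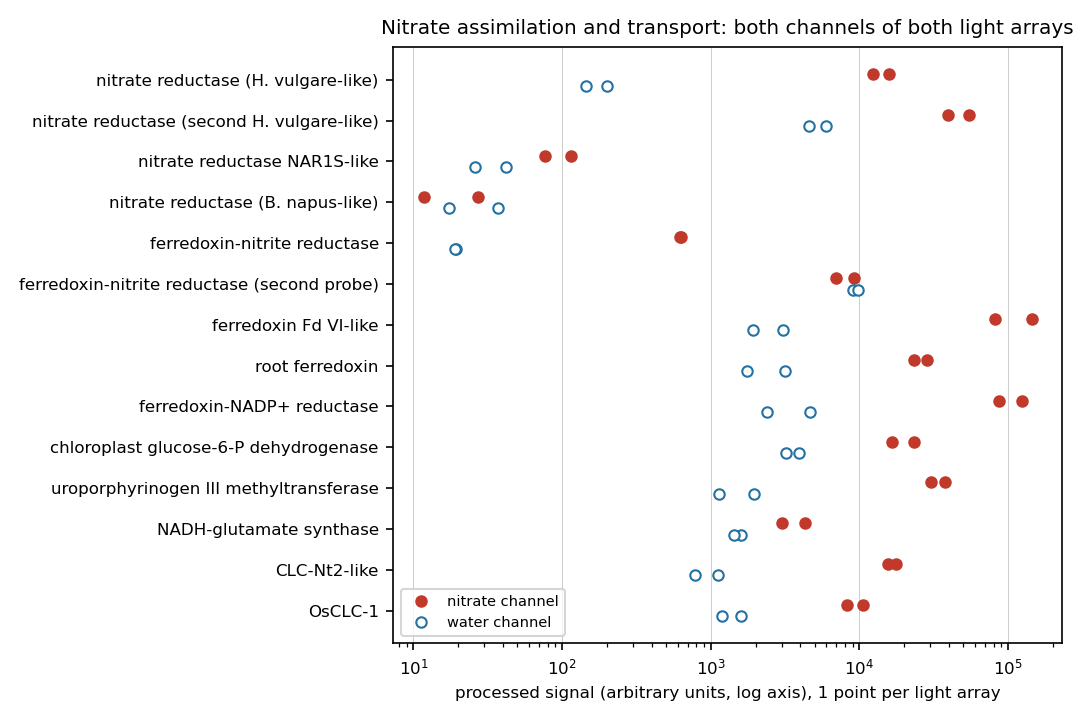
Processed signal (log axis, arbitrary units) of nitrate reduction, reductant, siroheme, glutamate synthase and anion channel probes, with 1 filled red point per light array for nitrate and 1 open blue point for water. For nitrate reductase A_71_P104314 the nitrate points lie at 12397 and 15703 and the water points at 144 and 199.9, while the points of the second nitrite reductase probe lie close together.

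Several genes that supply electrons and cofactor to nitrite reductase rose. The probe described as maize Fd VI, a ferredoxin, had 81804 and 143907 with nitrate and 1916 and 3069 with water (log2 ratio 5.47 ± 0.13), and 1 channel was saturated on 1 array, so its ratio may be understated. Ferredoxin-NADP+ reductase A_71_P107781, which passes electrons between NADPH and ferredoxin, had 87238 and 123810.4 with nitrate and 2404 and 4641 with water (log2 ratio 4.94 ± 0.18), also with saturation on 1 array. Root ferredoxin A_71_P115345 gave 23173 and 28591 with nitrate, against 1756 and 3133 with water (log2 ratio 3.48 ± 0.21). These were 3 of 15 probes on the ferredoxin list, whose remaining call was nitrite reductase itself, and the other 11 were not called. The share called was 26.7%, against 3.74% of all probes.

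Chloroplast glucose-6-phosphate dehydrogenase A_71_P119392, the entry enzyme of the oxidative pentose phosphate pathway, had 16602 and 23116 with nitrate and 3193 and 3939 with water (log2 ratio 2.49 ± 0.15, adjusted p by limma = 0.0395). It was 1 of 2 calls among 21 probes of that pathway (9.52%, against 3.74% of all probes). The other was a transaldolase probe (A_71_P119954), 2.11-fold lower by the fit, whose direction turned with normexp, to a log2 ratio of 0.015. Uroporphyrinogen III methyltransferase A_71_P103189, which commits tetrapyrrole to siroheme, had 30338 and 37503 with nitrate and 1128 and 1955 with water (log2 ratio 4.52 ± 0.20). Protochlorophyllide oxidoreductase A_71_P111021, on the chlorophyll branch, went the other way, with 44721 and 23306 in nitrate and 111935 and 41284 in water (log2 ratio -1.09 ± 0.16). That call was lost without light replicate 1, where the value was -0.90, and a channel was saturated on 1 array.

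Downstream of nitrite, ammonium assimilation was called in 1 of 28 probes (3.57%, near the 3.74% of all probes). This was NADH-dependent glutamate synthase A_71_P103791, with 3024 and 4288 for nitrate and 1608 and 1428 for water (log2 ratio 1.26 ± 0.22), and without light replicate 2 its value was 0.92 and no longer called. Glycolysis and organic acid enzymes were called in 1 of 57 probes (1.75%, below the share of all probes). This was NADP-dependent malic enzyme A_71_P103353, which was at least 2.6-fold higher with nitrate (adjusted p by limma = 0.0488), a call lost with normexp, at a log2 ratio of 0.20.

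Among anion channels, the probe most like tobacco CLC-Nt2 (A_71_P126125) had 15606 and 17741 with nitrate and 783 and 1123 with water, a log2 ratio of 4.16 ± 0.23 (adjusted p by limma = 0.0342). OsCLC-1 (A_71_P120164) had 8192 and 10533 with nitrate and 1190.1 and 1585 with water (log2 ratio 2.77 ± 0.14). CLC proteins carry chloride or nitrate across membranes, and a member in Arabidopsis loads nitrate into the vacuole. Potassium transporter HAK4 (A_71_P122042) rose as well, at 714 and 955 with nitrate and 255 and 322 with water (log2 ratio 1.55 ± 0.15), while the other 7 of 8 probes with that description were not called (log2 ratios of -0.04 to 0.74). The list of sulfate, phosphate, potassium and chloride transport held 75 probes, of which 3 rose and 1 fell (5.33%, against 3.74% of all probes). Without light replicate 2 the increases were 6.

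Of 49 nitrate, ammonium and peptide transporter probes 4 rose and 2 fell (12.2%, against 3.74% of all probes). Their median log2 ratio was 0.02, against -0.01 over all probes. The increases were modest. The probe like soybean NRT1-5 (A_71_P118488) had 141 and 159 with nitrate and 64.3 and 55.0 with water (log2 ratio 1.35 ± 0.17), and peptide transporter OsPTR1 (A_71_P110509) had 779.9 and 1011 with nitrate and 359 and 465 with water (log2 ratio 1.14 ± 0.17). The others were a nitrite transporter NiTR1-like probe at 1.09 and ammonium transporter OsAMT1 at 1.05, which without light replicate 1 had 0.90 and was not called. Both were picked after their values were seen. None of these 4 calls was kept with normexp. The AMT2-like ammonium transporter A_71_P105105 fell, with 457 and 532 in nitrate and 1599.7 and 1586 in water (log2 ratio -1.67 ± 0.22).

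Many genes tied to abscisic acid (ABA) and dehydration rose. ABA is the hormone of water deficit, and dehydrins and late embryogenesis abundant (LEA) proteins accumulate in drying tissue. Of 45 probes with such descriptions 16 rose and none fell (35.6%, against 3.74% of all probes), and their median log2 ratio was 0.44. The list was drawn up after the values were seen, so its count is a description. With normexp 8 of the list rose, and without light replicate 1 and without light replicate 2 the numbers were 13 and 17, with 1 decrease in the second case. The probe most like maize viviparous-14 (A_71_P126352), the enzyme that cleaves carotenoid to the ABA precursor, led the list with 4529 and 5090.0 in nitrate, against 435 and 677 in water (log2 ratio 3.16 ± 0.17, adjusted p by limma = 0.0296). The barley ABA-responsive protein probe A_71_P125878 had 7342 and 8851 with nitrate and 1792 and 2819 with water (log2 ratio 1.86 ± 0.18).

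Dehydrins and ABA-responsive transcription factors were among the other increases. The dehydrin LIP9 probe had 77901 and 74107 with nitrate and 19857 and 31582 with water (log2 ratio 1.55 ± 0.29), and LIP5 had 90730.1 and 114608 with nitrate and 45261 and 36747 with water (log2 ratio 1.26 ± 0.17, with a channel saturated on both arrays). Of transcription factors that bind ABA response elements, TRAB1 had 9873 and 11372 with nitrate and 3049 and 5585 with water (log2 ratio 1.38 ± 0.21), and the wheat ABFA-like probe A_71_P103401 had 136 and 172 with nitrate and 47.9 and 49.9 with water (log2 ratio 1.67 ± 0.15, call lost with normexp). The water-stress protein WSI76 rose on 1 of its 2 probes, with a log2 ratio of 1.46 ± 0.21. LIP9, LIP5, TRAB1 and WSI76 were picked after their values were seen.

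Protein phosphatases of class 2C, several of which restrain ABA signalling in Arabidopsis, supplied the 4 calls, all increases, among 78 phosphatase and MAP kinase probes (5.13%, against 3.74% of all probes). A_71_P122133, described by an Arabidopsis PP2C, had 6274 and 7711 with nitrate and 1738 and 1807 with water (log2 ratio 1.99 ± 0.16). The other 3 had log2 ratios of 1.37, 1.34 and 1.31, of which the last pair lost their calls with normexp.

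**Figure D3:**
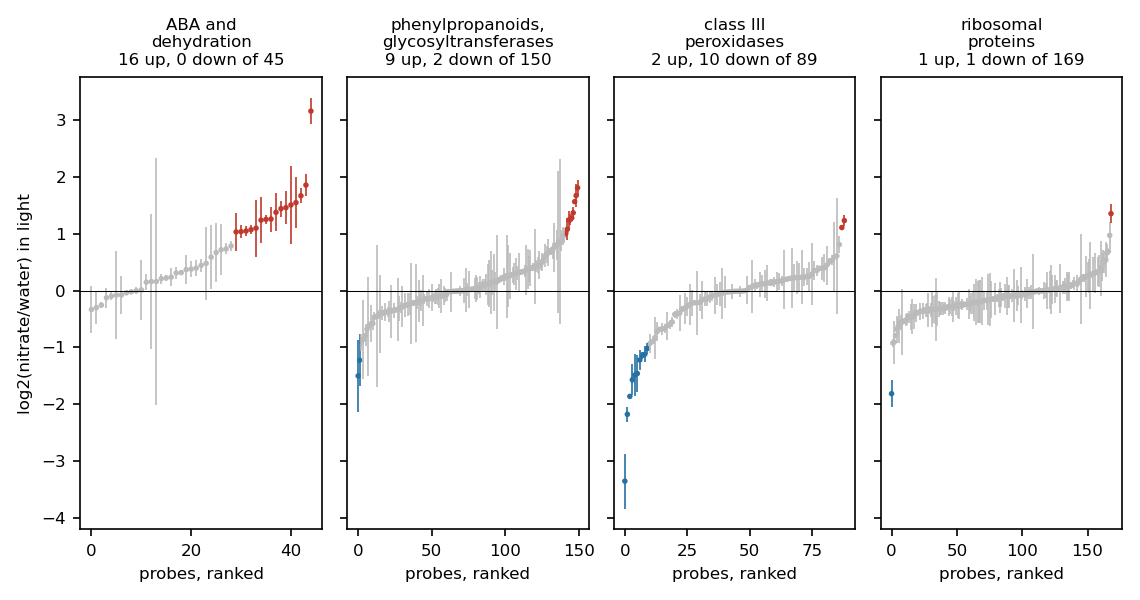
Log2 ratio of nitrate over water in light for the probes of 4 description lists, ranked within each list, with the point at the fitted value, the line between the values of the 2 arrays, and DEGs in red (higher) or blue (lower). In the ABA and dehydration list 16 of 45 probes rose and none fell, in the class III peroxidase list 2 rose and 10 fell, and the ribosomal list has a median of -0.12.

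Hormone synthesis genes moved both ways. The list of ethylene, gibberellin, ABA and jasmonate probes held 53, of which 6 rose and 5 fell (20.8%, against 3.74% of all probes). ACC oxidase, the last enzyme of ethylene synthesis, was lower on both of the called probes, while the other 6 of 8 ACC oxidase probes were not called. A_71_P113946 had 384 and 264 with nitrate and 903 and 1492 with water (log2 ratio -1.85 ± 0.33), and A_71_P124808 had 31.1 and 24.7 with nitrate, 1 of 2 arrays being well above background, and 88.9 and 113 with water (log2 ratio -1.87 ± 0.41). The call of A_71_P124808 was lost without light replicate 2, at -1.50. A jasmonate-induced protein probe (A_71_P126129) rose, with 1022 and 1319 for nitrate and 256 and 329.7 for water (log2 ratio 2.02 ± 0.13). Of genes picked after their values were seen, gibberellin 2-oxidase OsGA2ox3, which inactivates gibberellin, had 2484 and 2597 with nitrate and 804 and 1189.6 with water (log2 ratio 1.39 ± 0.19), and lipoxygenase 2, an enzyme on the jasmonate path, had 1007 and 1315 with nitrate and 380.2 and 432 with water (log2 ratio 1.52 ± 0.14).

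Auxin-related probes were called in 4 of 77 cases (3 higher, 1 lower, 5.19%, against 3.74% of all probes). There were 4 higher and 3 lower without light replicate 1, and 2 higher and 3 lower without light replicate 2. Decreases numbered 2 without either dark array. The auxin-induced protein-like probe A_71_P111448 had 78.2 and 156 with nitrate and 6.72 and 34.7 with water (log2 ratio 3.12 ± 0.39), with water well above background on 1 array only, and the call was lost with normexp. Cytokinin oxidase CKX6-like A_71_P102398, which degrades cytokinin, had 12763 and 12154 with nitrate and 5069 and 7432 with water (log2 ratio 1.04 ± 0.20), and was not called without light replicate 1, at 0.73. It was the only call among 25 cytokinin and response regulator probes (4.0%, near the 3.74% of all probes).

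Carbohydrate and ascorbate genes rose where they were called. Of 70 sucrose, starch and trehalose probes 6 rose and none fell (8.57%, against 3.74% of all probes). Alpha-amylase A_71_P120152 was 6.65-fold higher with nitrate by the fit (215 and 256, against 27.6 and 46.0 in water, where it was not well above background). Trehalase-like A_71_P123266 had 726 and 845 with nitrate and 228 and 318 with water (log2 ratio 1.56 ± 0.18). Sucrose-phosphate synthase A_71_P104356 had 164 and 171 with nitrate and 74.3 and 84.9 with water (log2 ratio 1.09 ± 0.14), a call lost with normexp. The other 3, picked after their values were seen, lost their calls without 1 light array: a beta-amylase probe at 1.08 was lost without either array (0.80 and 1.36), and trehalose-6-phosphate synthase probes at 1.01 and 1.09 were lost without light replicate 1 (0.95) and without light replicate 2 (0.68).

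All 4 calls among the 20 ascorbate probes were increases (20.0%, against 3.74% of all probes called), on a list added after the values were seen. Monodehydroascorbate reductase, which regenerates ascorbate, had 2295 and 3525 with nitrate and 662 and 543 with water on A_71_P120195 (log2 ratio 2.26 ± 0.27). Thylakoid-bound ascorbate peroxidase, which removes hydrogen peroxide in the chloroplast, had log2 ratios of 1.71 ± 0.15 and 1.51 ± 0.14 on 2 of the 4 probes with such a description, with 607 and 738 for nitrate and 176 and 244 for water on A_71_P112132. Hemoglobin 1 (A_71_P110515), a class of plant hemoglobin known to scavenge nitric oxide, had 15163 and 20268 with nitrate and 2245 and 2393 with water (log2 ratio 2.94 ± 0.28, adjusted p by limma = 0.0626). LLS1 (A_71_P123814), whose maize counterpart acts in chlorophyll breakdown, was 12.9-fold higher with nitrate by the fit (adjusted p by limma = 0.0286). It had 381 and 459 with nitrate and 25.8 and 42.1 with water, where it was not well above background. With normexp the fitted log2 ratio of LLS1 was 1.60.

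**Figure D4:**
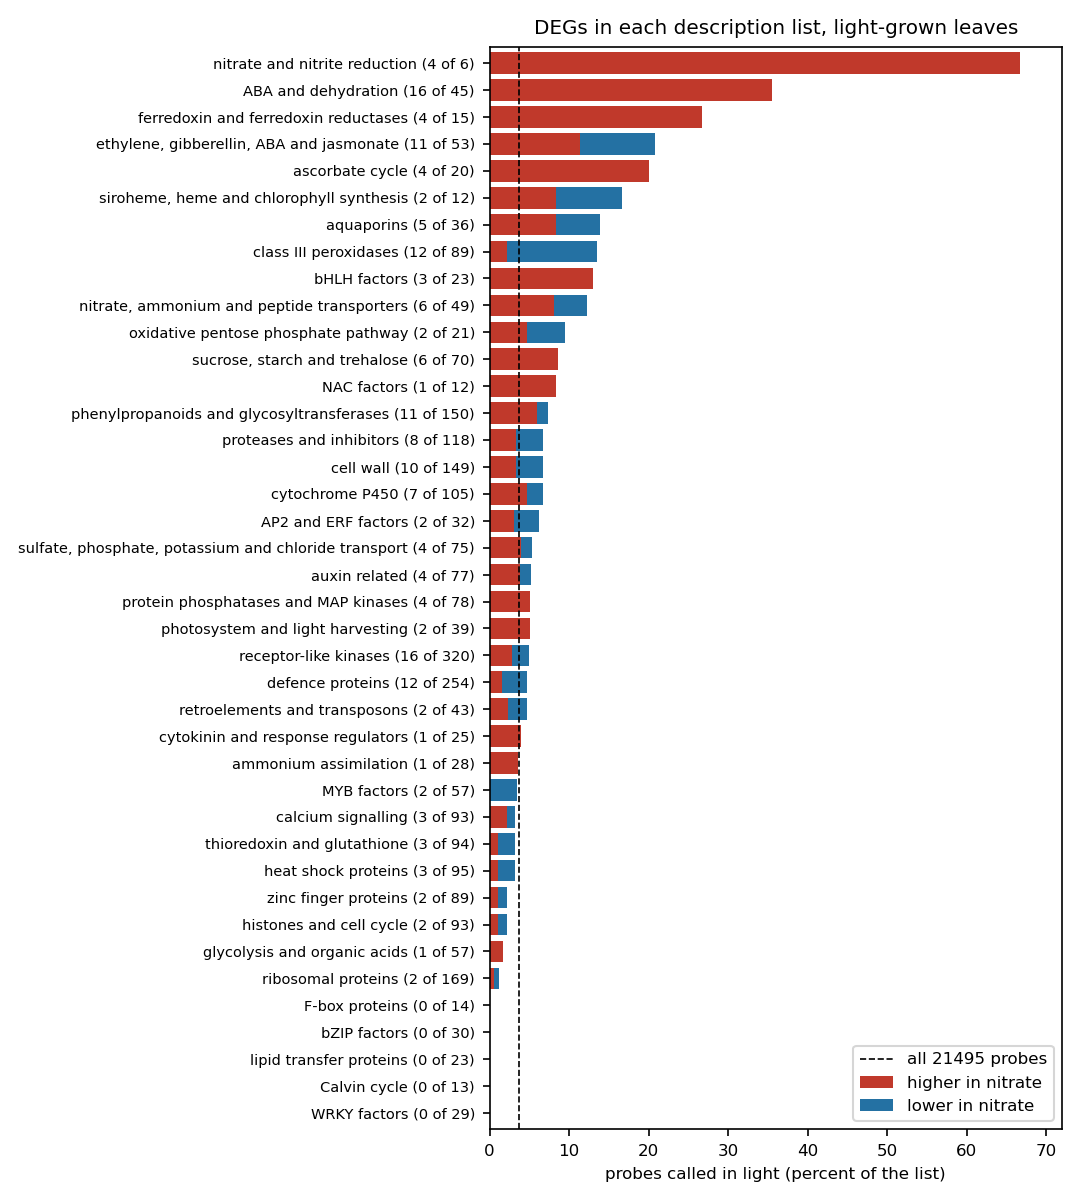
Percent of the probes of each description list called in light (x axis), with increases in red and decreases in blue, and in brackets the number called of the number tested. The green leaf, seed, pollen and root lists are not shown, and the ABA and ascorbate lists were drawn up after the values were seen. The dashed line is the 3.74% called over all probes, and nitrate and nitrite reduction lies farthest from it at 4 of 6.

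Glycosyltransferase and phenylpropanoid probes rose more often than they fell, with 9 higher and 2 lower among 150 (7.33%, against 3.74% of all probes). A probe like tobacco salicylic acid glucosyltransferase (A_71_P111136) had 1874 and 2324 with nitrate and 491 and 736 with water (log2 ratio 1.81 ± 0.20), and a second with the same description (A_71_P122835) had 5568 and 6821 with nitrate and 2324 and 2496 with water (log2 ratio 1.37 ± 0.14). The limonoid glucosyltransferase-like probe A_71_P114462 had a log2 ratio of 1.67 ± 0.16, a call lost with normexp. Cytochrome P450 probes gave 5 increases and 2 decreases among 105 (6.67%), with 4 decreases without light replicate 2.

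Transcription factor families had few calls in number, though the shares of some lay above the 3.74% of all probes. Of 23 basic helix-loop-helix (bHLH) probes 3 rose and none fell, and bHLH088-like A_71_P122738 had 583 and 697 with nitrate and 148 and 190.2 with water (log2 ratio 1.95 ± 0.14). The other bHLH probes had log2 ratios of 1.05 ± 0.28 and 1.02 ± 0.14. Neither was called without light replicate 1, at 1.13 and 0.92, and the bHLH087-like of them was not called without light replicate 2 either, at 0.96. MYB factors gave 2 decreases among 57 (3.51%, near the share of all probes), including A_71_P121724 with 399.8 and 496 for nitrate and 836 and 1537 for water (log2 ratio -1.33 ± 0.23). The AP2 and ERF list gave 1 increase and 1 decrease among 32 (6.25%), the increase being BABY BOOM2-like A_71_P109027 at 1.94 ± 0.19. The decrease was lost without light replicate 2 and without either dark array, and there were 3 increases without light replicate 2. Of 12 NAC probes 1 rose (8.33%), A_71_P112773 at 1.01, a call lost with normexp and without light replicate 2. Heat shock transcription factor 5-like A_71_P119289 had 99.5 and 123 with nitrate, against 20.9 and 20.5 in water, where it was not well above background. Its bound of 5.44-fold higher is no minimum, because the water signal did not lie under the raised level on both arrays. The call was lost with normexp. No call was made by limma among 29 WRKY and 30 bZIP probes, though without 1 light array each list had 1, and TRAB1 and ABFA are bZIP factors whose descriptions do not say so.

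Class III peroxidases, secreted enzymes that act on the cell wall and on phenolics, gave 10 decreases and 2 increases among 89 probes (13.5%, against 3.74% of all probes). Their median log2 ratio was -0.01, and in the dark the same list gave 15 decreases and 1 increase. The prx15-like probe A_71_P112987 had 34.9 and 21.0 in nitrate-treated leaves, with 1 of 2 arrays well above background, against 247 and 303 in water-treated leaves (log2 ratio -3.36 ± 0.27, adjusted p by limma = 0.0488). The PNC1-like probe A_71_P125477 had 79.2 and 82.1 with nitrate and 330.5 and 410.0 with water (log2 ratio -2.18 ± 0.49), and its call was lost without either light array, at -2.31 and -2.05. These light values lay close together, and the dark arrays that share the estimate of its spread had -2.65 and -0.71. The bacterial-induced peroxidase-like A_71_P116821 had 589 and 862 with nitrate and 2142 and 2139.9 with water (log2 ratio -1.57 ± 0.19). With normexp 6 of the list fell, and without light replicate 1 and without light replicate 2 the numbers were 7 and 9.

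Cell wall probes were called 10 times among 149 (5 higher, 5 lower, 6.71%, against 3.74% of all probes). Beta-expansin EXPB11 (A_71_P106285) had 8249 and 10953 with nitrate and 2601 and 2354 with water (log2 ratio 1.96 ± 0.20), and alpha-expansin OsEXP5, picked after its values were seen, rose to 4858 and 6652 with nitrate, against 1807 and 2229.7 with water (log2 ratio 1.52 ± 0.16). Expansin Os-EXP3 went the other way, with 26.3 and 86.5 for nitrate and 143 and 209 for water on A_71_P100666 (log2 ratio -2.12 ± 0.20, nitrate well above background on 1 of 2 arrays), and a second Os-EXP3 probe, A_71_P114714, was at least 3.27-fold lower. Expansins loosen the wall, and the members called did not share a direction. None of the 5 cell wall decreases was called with normexp, and without light replicate 2 the list had 8 increases and 3 decreases.

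Aquaporins, the water channels of plasma and vacuolar membranes, gave 3 increases and 2 decreases among 36 probes (13.9%, against 3.74% of all probes), and 1 increase without light replicate 1. The increases were of the plasma membrane type or named as a water channel, with 5207 and 7196 for nitrate and 2045 and 2895 for water on the PIP2-6-like probe A_71_P118763 (log2 ratio 1.35 ± 0.16). The PIP1-5-like probe A_71_P104157 had 11470.4 and 12191 with nitrate and 3013 and 6506 with water (log2 ratio 1.44 ± 0.29), and was not called without light replicate 1, at 0.93. Both decreases were of the tonoplast type, and 1 of them failed to stand well above background with nitrate or with water. TIP2-1-like A_71_P106284 had 6.14 and 10.9 with nitrate, not well above background, and 113 and 136 with water, and was at least 6.53-fold lower with nitrate (adjusted p by limma = 0.0395), and its fitted log2 ratio with normexp was -1.10.

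In the largest decreases the nitrate channel was not well above background, so they are given as bounds. The unknown expressed proteins A_71_P103328 and A_71_P122651 were at least 17.3-fold and 13.9-fold lower, with 6.42 and 11.5 for nitrate and 287 and 369 for water on the first probe and 6.35 and 11.3 for nitrate and 237 and 293 for water on the second (adjusted p by limma = 0.0186 and 0.0186). With normexp their fitted log2 ratios were -1.82 and -1.48. The broad bean transcription factor-like probe A_71_P115641 was at least 12.4-fold lower (10.2 and 10.8 with nitrate, 216 and 251 with water). Other decreases named by a product included a protein kinase-like probe whose call was lost with normexp (at least 6.3-fold lower). A taxane hydroxylase-like probe, dim with nitrate, was 7.25-fold lower by the fit. The cytochrome P450-like A_71_P123309 was well above background in both channels, at 185 and 166 with nitrate and 1221 and 2090.1 with water (log2 ratio -3.17 ± 0.36). A cysteine protease probe (A_71_P128551) had 91.7 and 78.3 with nitrate and 394 and 709 with water (log2 ratio -2.63 ± 0.30), and a laccase LAC2-1-like probe 54.8 and 34.9 with nitrate and 182 and 189 with water (log2 ratio -2.37 ± 0.16, nitrate well above background on 1 of 2 arrays, call lost with normexp). Cysteine proteases break down proteins, and laccases oxidise phenolics in the wall.

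Root-specific RCc3 (A_71_P104181), a gene expressed in rice roots, was among these decreases, at 15.1 and 10.7 with nitrate and 301 and 308 with water, at least 16.2-fold lower (adjusted p by limma = 0.0296), and its fitted log2 ratio with normexp was -1.49. Of the 21 probes whose description names root, 3 fell and 1, root ferredoxin, rose (19.0%, against 3.74% of all probes). RCc2 (A_71_P123102) had 9367 and 10251 with nitrate and 29522 and 27462 with water (log2 ratio -1.54 ± 0.14), and a second RCc3 probe (A_71_P123098) had 371 and 581 with nitrate and 1162 and 1114 with water (log2 ratio -1.28 ± 0.21), which was not called without light replicate 1, at -0.92. The other 6 of the 9 RCc2 and RCc3 probes were not called (log2 ratios of -0.23 to 0.53). Summed over the 21 probes, signal was 152459 and 156754 in the nitrate channel and 134950.2 and 136153 in the water channel, and 14 to 17 of them were well above background in each channel. In whole leaf RNA fewer cells of a type and less RNA per cell cannot be told apart, and the part of other tissue in these decreases was not tested.

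Ribosomal, Calvin cycle, lipid transfer and heat shock groups had shares of calls below the 3.74% of all probes. The shares of photosystem, receptor-like kinase and defence groups lay somewhat above it. Ribosomal protein probes were called in 2 of 169 cases (1.18%), with a median log2 ratio of -0.12. Of 39 photosystem and light-harvesting probes 2 were called (5.13%), both dim, with 6 increases without light replicate 1. By limma there was no call among 13 Calvin cycle probes, and none among 23 lipid transfer protein probes, of which 3 rose without light replicate 1 and whose median log2 ratio was 0.28. The heat shock list gave 2 decreases, both HSP80-2-like, and 1 increase, the heat shock transcription factor above, among 95 (3.16%). Defence proteins gave 4 increases and 8 decreases among 254 (4.72%), and receptor-like kinases 9 increases and 7 decreases among 320 (5.0%). Without light replicate 1 there were 5 heat shock decreases and 7 defence increases, and without light replicate 2 there were 17 receptor-like kinase increases. The S-domain receptor kinase-like A_71_P108617 was the largest of these increases, with 679 and 726 for nitrate and 86.0 and 166 for water (log2 ratio 2.57 ± 0.26), and the receptor kinase-like A_71_P124427 was at least 3.16-fold lower (8.62 and 14.1 with nitrate, 47.7 and 75.6 with water), a call lost with normexp. The HSP80-2-like probe A_71_P111407 had 98.9 and 68.1 with nitrate and 245 and 617 with water (log2 ratio -2.23 ± 0.49), and a second such probe had -1.25, not called without light replicate 2 (-0.89). HSP80-2 is a chaperone of the HSP90 class. The NBS-LRR resistance-like A_71_P124581 had the largest fitted decrease among called defence proteins, with 46.8 and 54.3 for nitrate and 133 and 175 for water (log2 ratio -1.58 ± 0.20), a call lost with normexp.

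Further increases came from proteases, P450 enzymes, wall enzymes and calcium-dependent kinases. The serine protease SBT2-like A_71_P111664 was at least 3.83-fold higher with nitrate (63.1 and 80.7, against 8.99 and 13.5 in water). The list of proteases and inhibitors gave 4 increases and 4 decreases among 118 (6.78%, against 3.74% of all probes), with 7 increases without light replicate 1. The cytochrome P450-like A_71_P107462 was at least 2.3-fold higher (31.0 and 57.1, against 6.96 and 10.1 in water). Xyloglucan fucosyltransferase, which decorates a hemicellulose of the wall, was 4.89-fold higher by the fit on A_71_P110908 (111 and 148, against 19.0 and 39.4 in water, where it was not well above background). These 3 calls were lost with normexp. The calcium-dependent protein kinase-like A_71_P119970 had 2712 and 3288 with nitrate and 1046 and 1314 with water (log2 ratio 1.36 ± 0.19), 1 of 3 calls among 93 calcium signalling probes (3.23%), where decreases numbered 1, and 3 without light replicate 2. Glutathione S-transferase GST 20-like A_71_P102914 had 2078 and 2735 with nitrate and 932 and 1240.5 with water (log2 ratio 1.16 ± 0.16), and replication protein OsRPA70a (A_71_P126645), which binds single-stranded DNA, fell to 48.2 and 80.4 with nitrate, against 120.1 and 240.5 with water (log2 ratio -1.44 ± 0.19), a call lost with normexp.

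The lists together held 182 of the 803 DEGs, and 621 DEGs were in none of them.

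The light response was then set against that of etiolated leaves in the dark. Of the 803 light DEGs 148 were also DEGs in the dark with the same direction (102 higher, 46 lower) and 33 with the opposite one, where 3.53% of all probes were DEGs in the dark. The difference between conditions, light minus dark, passed the DEG rule for 398 of the light DEGs and for 6.51% of all probes, and 2281 probes against 1400 passed without dark replicate 2. No probe passed after adjustment (smallest adjusted p by limma 0.0602), while 3378 probes had a p no higher than 0.05 before adjustment. The 398 were counted among probes chosen by the light value that enters the difference, so their share is a description.

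Both barley-like nitrate reductase probes, Fd VI and ferredoxin-NADP+ reductase had higher ratios in light than in dark, with positive ratios on all 4 arrays, while the NAR1S probe A_71_P120867 had 1.61 and 2.05 in light and 2.36 and 1.26 in dark (difference 0.02 ± 0.44). Nitrate reductase A_71_P104314 had log2 ratios of 6.44 and 6.32 in light and 3.29 and 3.72 in dark, a difference of 2.88 ± 0.23 (light minus dark, adjusted p by limma = 0.0993). For nitrate reductase A_71_P120871 the ratios were 3.12 and 3.17 in light and 0.88 and 0.80 in dark (difference 2.30 ± 0.18), and for Fd VI 5.43 and 5.51 in light and 3.05 and 3.13 in dark (difference 2.38 ± 0.18). For ferredoxin-NADP+ reductase the fitted ratios were 4.94 in light and 3.08 in dark (difference 1.86 ± 0.25), whereas for glucose-6-phosphate dehydrogenase the difference was 0.13 ± 0.21, within its error. The differences of the nitrate reductases A_71_P104314 and A_71_P120871, Fd VI and ferredoxin-NADP+ reductase passed the DEG rule by unadjusted limma p, and none passed adjustment.

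**Figure D5:**
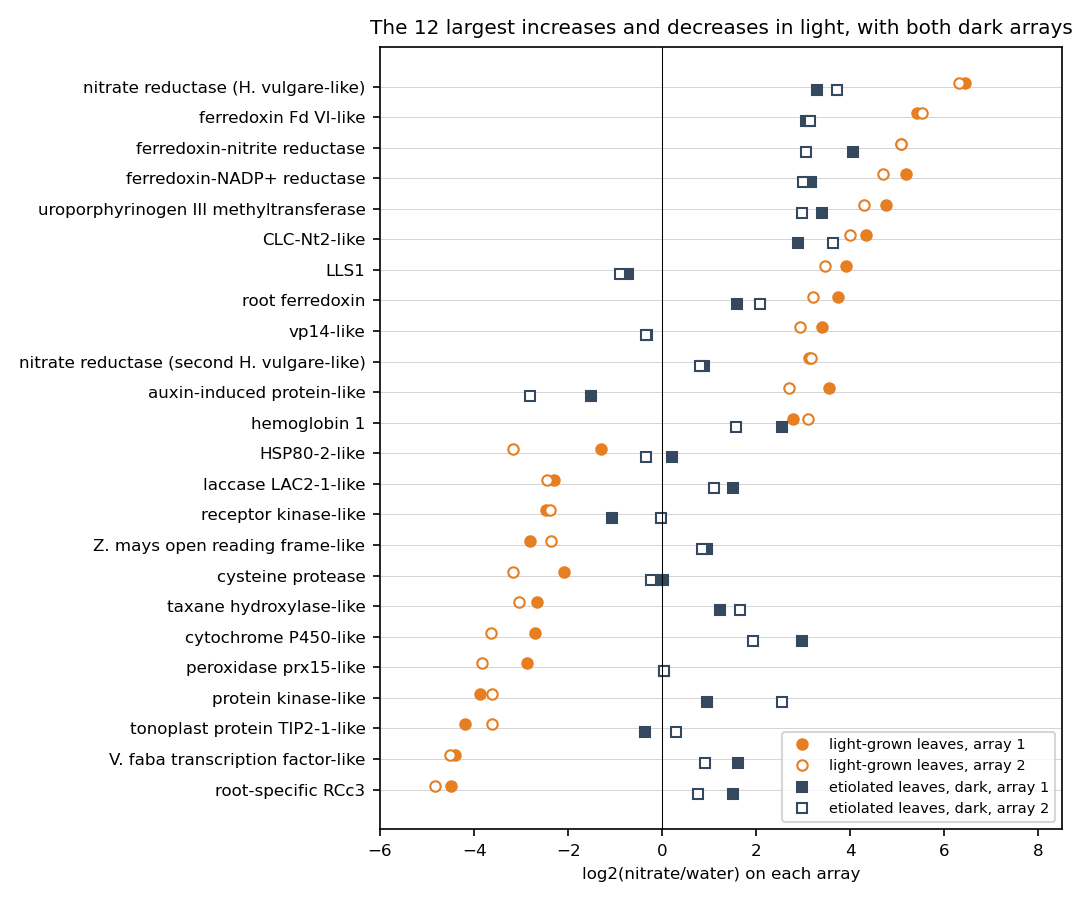
Log2 ratio of nitrate over water on each array (x axis) for the 12 largest increases and 12 largest decreases in light with a named product, as circles for light and squares for dark, filled for the first array and open for the flip-dye array. Both dark arrays lie above 0 for nitrate reductase, Fd VI and CLC-Nt2, and below 0 for LLS1, vp14 and the auxin-induced protein-like probe, while RCc3 at the foot of the plot has -4.49 and -4.83 in light and 1.51 and 0.76 in dark.

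Several leading changes in light were absent or opposite in the dark. The vp14-like probe had 3.40 and 2.93 in light and -0.32 and -0.33 in dark, a difference of 3.49 ± 0.24. LLS1 had 3.91 and 3.47 in light and -0.73 and -0.90 in dark. RCc3 had -4.49 and -4.83 in light and 1.51 and 0.76 in dark, and the cytochrome P450-like A_71_P123309 had -2.71 and -3.63 in light and 2.97 and 1.94 in dark. The ABA and dehydration list as a whole was not absent in the dark, where 4 of its 45 probes rose and none fell. Over all 21495 probes 389 rose in the dark. The median of the list was 0.44 in light and 0.16 in dark. By unadjusted limma p these single differences passed the DEG rule, and none passed after adjustment.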

How the data were processed

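Each array was hybridised with nitrate and water RNA in opposite dyes. Per the file headers, Feature Extraction 9.5.3.1 made the deposited intensity of each spot and channel by subtracting background and correcting dyes, whereas the study's methods name another release. The deposited log10 ratio of each spot is red over green from the same software. The ratio table was made by the authors in GeneSpring GX with per-spot and per-chip normalization. It correlated at r = 0.981 to 0.994 with the loess-corrected probe ratios used here, taken as nitrate over water.

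Here log2 intensity ratios were corrected by loess in every array separately, with a span of 0.3 and 4 iterations (1417 control spots of 44407 at weight 0), outlier spots were left out, the spots of a probe were averaged, and all 4 arrays were fitted in limma 3.58.1 (R 4.3.3) with a light and a dark coefficient, tested with empirical Bayes moderation. No column of per-sample values was left without a sample. Errors are limma standard errors of the mean of n = 2 arrays, with the spread estimated from all 4 arrays. Where both arrays lacked a channel well above background, a bound on the fold was computed from channel signals scaled by loess and Aquantile. A dim signal below the lowest signal among probes well above background was raised to that level, and a dim signal above it was left as measured. The number of arrays limits precision.

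Genes were grouped into 44 lists by words in the printed descriptions. The members and lists were chosen with earlier results of these data known, and the ABA, ascorbate and root lists after their values were seen, so list counts and medians are descriptions and were not tested. Named probes were all 6 of nitrate and nitrite reduction, the 12 largest increases and 12 largest decreases with a named product, the 3 largest changes in each list, and the 3 largest in each direction of any description, all with a channel well above background on both light arrays, except that the 6 were taken whole. Others are named as picked afterwards. All 4 arrays lay on 1 slide with 1 scan time, so no batch could be separated. The procedure was tested on simulated data. Alternatives covered background correction (normexp, offset 50), normalization, ratio source, dim, outlier and saturated spots, a dye term, the arrays fitted, moderation and the fold threshold, and those for light minus dark were chosen after seeing the data.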

Additional observations from a re-analysis of the deposited data

Results flagged for a closer look

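For 27 named probes both light arrays moved one way and both dark arrays the other. The difference, light minus dark, passed the DEG rule in 26 of them by unadjusted limma p, the exception being Dof zinc finger A_71_P108388 (1.55), and in none after adjustment (adjusted p by limma 0.0738 to 0.319). The probes were chosen by large light values and by these opposite signs, so the count of 26 restates that choice and is a description. Where a channel was dim the fitted difference is no bound.

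Of the increases in light, the auxin-induced protein-like A_71_P111448 had log2 ratios of 3.55 and 2.70 in light and -1.52 and -2.80 in dark, a difference of 5.29 ± 0.56. LLS1 (A_71_P123814) differed by 4.50, vp14-like A_71_P126352 by 3.49 and heat shock transcription factor 5-like A_71_P119289 by 3.06. The transcription factors BABY BOOM2-like A_71_P109027 and bHLH GBOF-1-like A_71_P120967 differed by 2.30 and 2.07. EXPB11 (A_71_P106285) had 2.46, limonoid glucosyltransferase-like A_71_P114462 2.42 and salicylic acid glucosyltransferase-like A_71_P122835 1.51. The subtilisin protease-like A_71_P107463 differed by 2.56, cytochrome P450-like A_71_P108255 by 2.16, and the water channel PIP2-6-like A_71_P118763 by 2.25. Protein phosphatase MPC9-like A_71_P117228 had a difference of 1.58 and cytokinin oxidase CKX6-like A_71_P102398 of 1.19.

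Of the decreases in light, RCc3 (A_71_P104181) had log2 ratios of -4.49 and -4.83 in light and 1.51 and 0.76 in dark, a difference of -5.79 ± 0.33. The unknown protein A_71_P103328 differed by -6.13, the broad bean transcription factor-like A_71_P115641 by -5.73, the protein kinase-like A_71_P115501 by -5.50 and the cytochrome P450-like A_71_P123309 by -5.63. Taxane hydroxylase-like A_71_P118878 had -4.29, laccase-like A_71_P124408 -3.68, the maize open reading frame-like A_71_P117449 -3.49 and peroxidase prx15-like A_71_P112987 -3.39, with dark ratios of 0.04 and 0.03 for prx15, close to 0. OsRPA70a (A_71_P126645) differed by -2.04, the mutator transposase-like A_71_P122546 by -2.94 and the ribosomal L5-like A_71_P127561 by -2.38.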

How the results depend on the processing

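The 490 increases and 313 decreases became 190 and 81 with normexp background correction, 176 and 107 with no moderation, and 309 and 189 when a log2 ratio of 1 was asked of each light array, and stayed within 1.5 times the reported counts under the other alternatives. Normexp kept 271 of the 803 calls, and 9 of the 803 changed sign, including among list members the lipoxygenase rci-1 probe A_71_P126555 (-0.068) and the transaldolase probe A_71_P119954 (0.015), both dim. Without each array in turn there were 490 to 662 increases and 308 to 458 decreases.

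The 67 calls after adjustment became 803 with normexp, 330 with median centring, 295 with no further normalization, 309 with the deposited normalized ratios and 722 without dim probes. They became 0 with the log ratio of Feature Extraction, with the dye term, with the light arrays alone, with no moderation and without any 1 array (0 to 0), where the rule on unadjusted p and fold still called 732, 806, 798, 283 and 798 to 1098 probes. The cause was not tested. The 1400 probes past the rule in light minus dark became 500 with normexp, and 1241 to 2281 without 1 array, the highest without dark replicate 2.

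All 95 named probes with a call kept their direction under each alternative that tested them. Only a change of background correction, normalization, ratio source or spots left out could have turned it. The other alternatives reuse the light ratios of the main fit, which the rule all but requires to share a sign. Of the 95 probes, 81 were tested under every alternative and 32 of the 81 kept the call throughout, while 14 were not tested without dim probes. The call was kept for 54 with normexp, 52 with no moderation, 80 with the threshold on each array, 84 without light replicate 1 and 86 without light replicate 2. Increases made up 58.3% to 70.1% of calls. Each ratio already pairs nitrate with water on 1 array. Light arrays were not paired with dark arrays, because replicate numbers follow accession order and mark only the dye orientation. The fit with a replicate block, here the dye term shared by first and flip-dye arrays, gave 495 increases and 311 decreases.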
